A study of Mus musculus with 18 samples.

Results

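Tnf encodes tumour necrosis factor (TNF), a cytokine that macrophages release early in an inflammatory response. Its mRNA was followed as the row of the value table whose platform symbol is Tnf (probe set 10450501), 1 row of 25138 and 1 gene of 19454. The gene (RefSeq gene 21926) lies on mouse chromosome 17 at chr17:35199367-35202007 in GRCm38.p6, and the probe set reports the gene as a whole.

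The samples were bone marrow-derived macrophages, grown with M-CSF from marrow of C57Bl/6 mice, either TTP-/- (KO) or wild type (WT). TTP, tristetraprolin, is the protein product of Zfp36. Cells of all 6 groups had received lipopolysaccharide (LPS), a bacterial cell wall product, for 3 h. They were then kept for 0, 45 or 90 min in medium with actinomycin D to stop transcription and SB203580 to inhibit p38 MAPK, and the study asked which mRNAs remained. Total RNA was read on Affymetrix Mouse Gene ST 1.0 arrays, 3 per genotype and time, 18 in all. No group lacked LPS, and the time with actinomycin D equals the time with the p38 inhibitor. The part of Zfp36 that the mutants lack is not given in the sources used here.

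Tnf mRNA carries an AU-rich element in its 3′ untranslated region, a stretch that marks short-lived messages of cytokines and other inducible genes. TTP binds such elements and brings deadenylases to the message, which starts its degradation. In macrophages p38 signalling after LPS restrains TTP through the kinase MK2, so that Tnf mRNA persists while the signal lasts. The secreted cytokine acts through TNF receptors, whose signalling induces NF-kB targets, among them its own inhibitors.

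The arrays were first set against their labels. All 9 macrophage markers lay above the signal limit (a log2 intensity of 3.03, the median row mean) in every group. None of the listed T cell, B cell, NK cell, neutrophil and mast cell markers did so, while 1 of 4 dendritic cell and 3 of 5 fibroblast markers did. The mean over the macrophage markers was 9.22 to 9.60 in KO arrays and 8.86 to 9.21 in WT arrays. Of the 9 markers, 5 were higher in KO than in WT at 0 min and 8 at 90 min, so the shift of the mean was not shared by all. No single marker differed between genotypes past the threshold, and the part of this marker shift in the Tnf values was not tested. Zfp36 itself had a log2 signal of 6.61 ± 0.31 in KO and 7.64 ± 0.45 in WT cells at 0 min (SD, n = 3 each), KO minus WT being -1.04 ± 0.32 (limma adjusted p 0.5638), which does not check the deletion. Replicate 3 of every group carries lower sample numbers in the titles (series A, 6 arrays) than replicates 1 and 2 (series B, 12 arrays), and the first principal component separated these series.

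A pair of KO arrays went against the order of their time labels. Across the 125 genes that fell over 90 min in WT cells, the median step between 45 and 90 min was -0.39, 0.54 and -0.47 in KO replicates 1, 2 and 3, against -0.68, -0.78 and -0.44 in WT replicates 1, 2 and 3. These genes were chosen by their fall in the same WT arrays, so their WT steps and counts are no independent reference. In KO replicate 2, 117 of the 125 genes were higher in the array labelled 90 min than in the array labelled 45 min. That number was 24 and 18 in the other KO replicates, and 4, 2 and 13 in the WT replicates. The samples of both arrays are described as kept in actinomycin D, but the block itself was not measured. The reason for their order was not tested. The arrays keep their labels here, and the results that rest on them are also given without both arrays, a choice made after seeing the data.

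Tnf kept most of its signal for 90 min in KO macrophages, where its change did not pass the threshold, and fell steeply in WT macrophages. Its intensity was 3925, 4211 and 4391 in KO replicates 1, 2 and 3 at 0 min, 3388, 2847 and 3557 at 45 min, and 2876, 3699.7 and 2701 at 90 min. In WT replicates 1, 2 and 3 it was 3501, 3810.0 and 3657 at 0 min, 845, 808 and 514 at 45 min, and 211, 195 and 177 at 90 min. At 0 min the lowest KO array lay just above the highest WT array. At 45 and 90 min every KO array lay far above every WT array, and the lowest KO value of any time exceeded the highest WT value at 45 min. In KO replicate 2 the array labelled 90 min was the higher of its later pair, as it was for most of the 125 unstable genes.

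**Figure D1:**
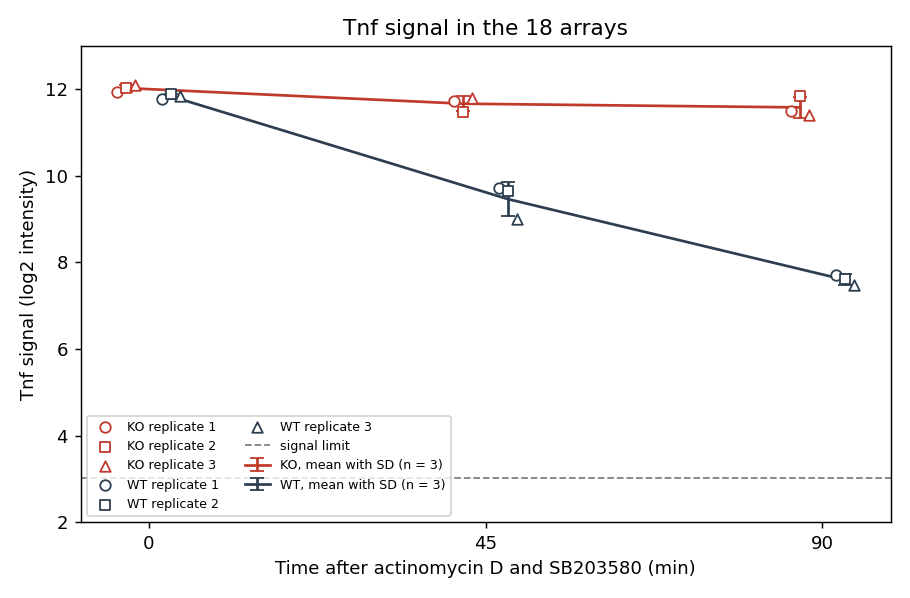
Tnf signal (log2 intensity) against minutes after actinomycin D and SB203580. Symbols are single arrays, lines join group means with SD (n = 3), KO is drawn left of WT at each time, and the dashed line is the signal limit at 3.03. KO means lie between 11.58 and 12.03 at all times, while WT means are 11.84, 9.46 and 7.60.

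The mean log2 signal in KO cells was 12.03 ± 0.08 at 0 min, 11.67 ± 0.17 at 45 min and 11.58 ± 0.24 at 90 min (SD, n = 3 each). In WT cells it was 11.84 ± 0.06 at 0 min, 9.46 ± 0.40 at 45 min and 7.60 ± 0.13 at 90 min (SD, n = 3 each). On the linear scale the KO means were 4176 ± 235, 3264 ± 371 and 3092 ± 533, and the WT means were 3656 ± 155, 722 ± 181 and 194 ± 16.8, at 0, 45 and 90 min. Ordered by level, KO at 0 min came first, then WT at 0 min, KO at 45 min, KO at 90 min, WT at 45 min and WT at 90 min. The arrays of neighbours in this order overlapped for WT at 0 min with KO at 45 min and for KO at 45 min with KO at 90 min. The arrays of the other neighbours did not overlap. The lowest WT mean still lay 4.57 on the log2 scale above the signal limit, which is a median over rows and no measure of background. At the other end, Tnf ranked 6 to 10 from the brightest of 19454 genes in the arrays at 0 min. In the KO arrays at 45 and 90 min it ranked 8 to 21. Whether the signal stays proportional to the message at that height was not tested, which limits the small KO changes and the genotype ratio at 0 min. In bulk RNA, fewer cells with the message and less message per cell cannot be told apart.

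In WT cells the fall over 90 min was 4.24 ± 0.18 on the log2 scale (SE), which left 5.31% of the starting signal (95% interval 4.07 to 6.92%). limma gave an adjusted p of 2.174e-10 over 10258 genes, n = 3 arrays per group. Genes called lower in this comparison made up 1.22% of those tested, and none fell further than Tnf. Socs3, an inhibitor of cytokine receptor signalling, came next with -3.66 ± 0.49, followed by Plk2, a Polo-like kinase, with -3.57 ± 0.43. By replicate number, 6.02%, 5.12% and 4.84% of the WT signal was left in replicates 1, 2 and 3.

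In KO cells the change over 90 min was -0.45 ± 0.18 on the log2 scale, with a 95% interval for the signal left of 56.3 to 95.7% around 73.4%. The limma adjusted p was 0.7858 (unadjusted 0.0250), n = 3 arrays per group. This comparison called 0.224% of genes lower, 23 in all, or 56 with the replicate number as a block. By replicate number, 73.3%, 87.9% and 61.5% of the KO signal was left in replicates 1, 2 and 3. Without the KO arrays numbered 2 at 45 and 90 min the change was -0.58 ± 0.19, leaving 66.8%, with an adjusted p of 0.4424 and 71 genes called lower. The KO change was 10.5% of the WT fall on the log2 scale, and 4.82% of all tested genes fell further than Tnf in KO cells.

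Other messages did fall in KO cells. Socs3 fell by 2.55 ± 0.49 on the log2 scale in KO cells (limma adjusted p 0.0411) and Plk2 fell by 2.36 ± 0.43 (adjusted p 0.0318). Omission of single arrays kept the KO call of Socs3 in 6 of 18 cases and that of Plk2 in 9 of 18. Without the later KO arrays numbered 2 their KO changes were -3.14 ± 0.33 (adjusted p 1.675e-04) and -2.997 ± 0.30 (adjusted p 1.105e-04), beside -3.66 ± 0.29 and -3.57 ± 0.26 in WT cells in the same fit.

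**Figure D2:**
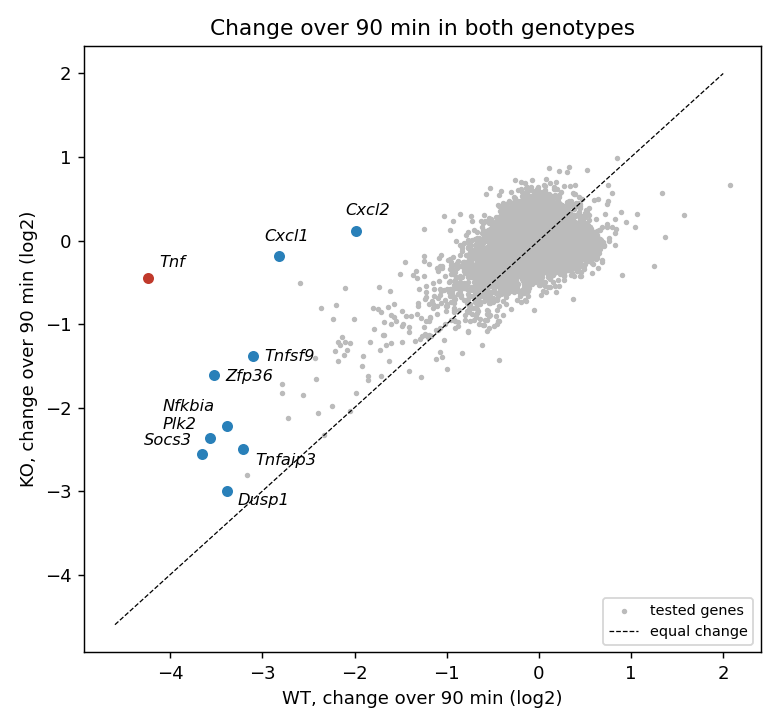
Change over 90 min (log2) in KO cells, vertical axis, against that in WT cells, horizontal axis, for the 10258 tested genes, with equal change dashed. Tnf lies at -0.45 in KO and -4.24 in WT, far above the dashed line, whereas Tnfaip3 (-2.49 in KO, -3.21 in WT) and Dusp1 (-2.997 in KO, -3.39 in WT) lie near it.

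The difference between genotypes in this change, KO minus WT, was 3.79 ± 0.26 on the log2 scale (95% interval 3.25 to 4.33), an adjusted p of 3.760e-07 with limma. It was the largest of the 10258 genes, and 0.0195% were called higher, namely Tnf and Cxcl2. With the replicate number or the title series as a block 3 genes were called, and in series B alone 5. By replicate number the Tnf difference was 3.61, 4.10 and 3.67 in replicates 1, 2 and 3, so the arrays of series A (replicate 3) and series B gave similar values. In series B alone it was 3.85 ± 0.24 with an adjusted p of 1.199e-06. Without the later KO arrays numbered 2 it was 3.65 ± 0.26, an adjusted p of 5.709e-06, and Tnf was the 1 gene called.

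The genotypes were also compared at each time; these comparisons share their arrays with the differences above. At 0 min, after LPS and before the block, KO exceeded WT by 0.19 ± 0.18 on the log2 scale, a 1.14-fold difference with a 95% interval of 0.876 to 1.49. That interval uses the spread pooled over all 6 groups, while the SD at 0 min was 0.08 in KO and 0.06 in WT cells. The limma adjusted p was 0.8378, and 0% of genes were called higher (387 at an unadjusted p below 0.05). With the replicate block 19 genes were called there, and 737 were without the array WT 0 min replicate 3, but Tnf was called in no alternative. The ratio was 1.12, 1.11 and 1.201 in replicates 1, 2 and 3.

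At 45 min Tnf was 4.61-fold higher in KO than in WT cells (2.20 ± 0.18 on the log2 scale, limma adjusted p 8.076e-06). The ratio was 4.01, 3.53 and 6.92 in replicates 1, 2 and 3. Genes called higher made up 0.0195%, Tnf and Cxcl2, and 15 genes were called with the replicate block. The Il10 estimate was larger than that of Tnf, 2.52 ± 0.66, but was not called (adjusted p 0.4364). Over the single omissions 1 to 3 genes were called, Tnf always among them, and without the later KO arrays numbered 2 Cxcl2 was not (1.42 ± 0.27, adjusted p 0.2127). At 90 min Tnf was 15.8-fold higher (95% interval 12.1 to 20.6), a difference of 3.98 ± 0.18 with an adjusted p of 6.060e-10 and the largest of all genes. The ratio was 13.6, 19.0 and 15.2 in replicates 1, 2 and 3. Here 0.146% of genes were called higher, 15 in all, 73 with the replicate block and 3 without the later KO arrays numbered 2. Without those arrays Tnf was 4.92-fold higher at 45 min and 14.4-fold higher at 90 min, with adjusted p of 5.878e-05 and 4.276e-08.

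**Figure D3:**
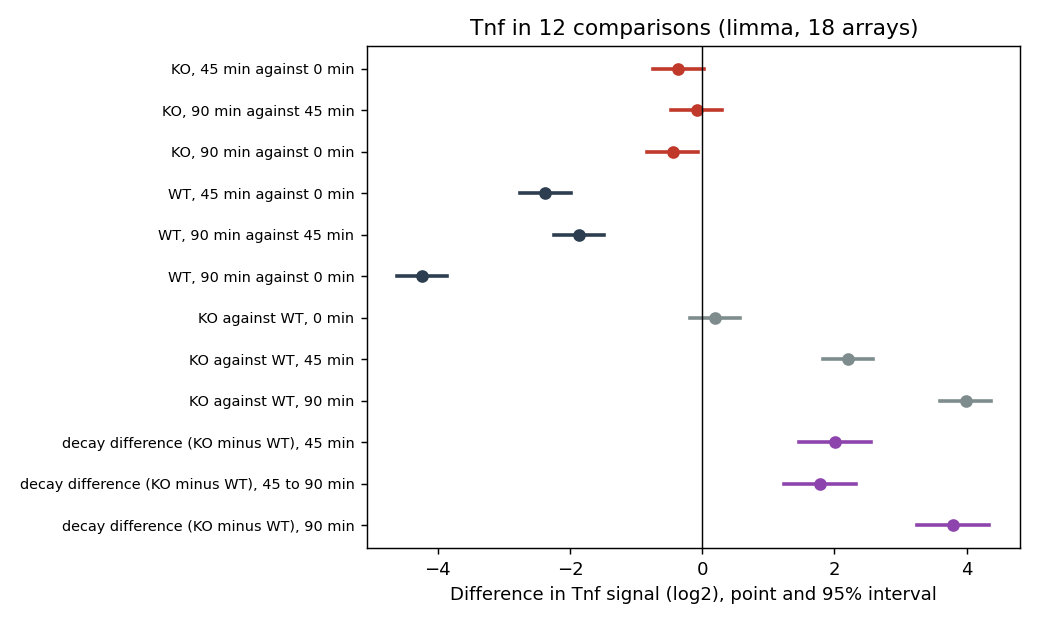
Tnf in 12 comparisons, as the log2 difference (point) with its 95% interval (line), grouped as changes over time in KO, changes over time in WT, KO against WT at each time, and decay differences. The KO intervals reach to within 0.06 of 0 or cross it, whereas the WT changes lie between -4.24 and -1.86.

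The loss in WT cells ran through both steps. Between 0 and 45 min Tnf fell by 2.37 ± 0.18 on the log2 scale, leaving 19.3% of the signal (limma adjusted p 2.566e-06). In this comparison 0.127% of genes were called lower, 13 in all and 25 with the replicate block. Dusp2 and Zfp36 were called with larger falls. Dusp1 and Il10, which encodes interleukin-10, also had larger estimates, -2.63 ± 0.67 and -2.46 ± 0.66, with adjusted p of 0.3018 and 0.3864. Between 45 and 90 min Tnf fell by a further 1.86 ± 0.18, leaving 27.5% of the level at 45 min (adjusted p 1.021e-04). It was the only gene called lower in that step, 0.00975% of those tested, whereas without the later KO arrays numbered 2 there were 13. Nfkbia and Plk2 had larger estimates, -2.08 ± 0.49 and -2.17 ± 0.43, with adjusted p of 0.4560 and 0.3017. The late step was smaller than the early step by 0.51 ± 0.31 on the log2 scale, a difference that did not pass the threshold (adjusted p 0.9999).

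In KO cells the early step was -0.36 ± 0.18 (limma adjusted p 0.9813), where 0.0487% of genes were called lower, 5 in all and 26 with the replicate block. The late step was -0.09 ± 0.18 (adjusted p 1.0000), where 0% were called lower and 92 had an unadjusted p below 0.05. The late step of Tnf was -0.24, 0.38 and -0.40 in KO replicates 1, 2 and 3. Its mean therefore includes the reversed pair, and without both arrays it was -0.32 ± 0.21 beside an early step of -0.27 ± 0.19.

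By step, the decay difference was 2.01 ± 0.26 over the first 45 min (limma adjusted p 0.0047), and 0.00975% of genes, Tnf alone, were called. Between 45 and 90 min it was 1.78 ± 0.26 (adjusted p 0.0242), and again 0.00975%, Tnf alone, were called. By replicate number the first was 1.84, 1.67 and 2.53, and the second 1.77, 2.43 and 1.14, in replicates 1, 2 and 3. Without the later KO arrays numbered 2 the early difference was 2.11 ± 0.26 (adjusted p 0.0083), whereas the late difference was 1.55 ± 0.28 and lost its call (adjusted p 0.5165). The late call was kept in 7 of 18 omissions of a single array and in 15 of all 31 alternatives. The early call was kept in all but 1, centring on ribosomal protein genes (1.89, adjusted p 0.0743).

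A straight line through the log2 signal over the 3 times gave a relative half-life of 202 min in KO cells (95% interval 108 to 1631 min) and 21.2 min in WT cells (19.5 to 23.4 min), a ratio of 9.51. These are relative to the average message on the array, since RMA normalises the arrays to each other. The KO slope itself did not pass the threshold (limma adjusted p 0.7596), and no interval was computed for the ratio. The slopes differed by 2.53 log2 units per hour with a limma adjusted p of 9.652e-08, and 0.0195% of genes, Tnf and Cxcl2, were called. With the replicate block 3 genes were called. In KO replicates 1, 2 and 3 the half-life was 201, 482 and 128 min, and in WT replicates 1, 2 and 3 it was 22.2, 21.0 and 20.6 min. The KO half-lives thus spread widely, with the highest in the replicate that held the reversed pair, and the WT half-lives little. A half-life is the inverse of the slope, so shallow slopes widen its spread. The slopes themselves were -0.0050, -0.0021 and -0.0078 log2 units per min in KO replicates 1, 2 and 3. In WT replicates 1, 2 and 3 they were -0.0450, -0.0476 and -0.0485. Without the later KO arrays numbered 2 the KO half-life was 156 min (90.6 to 550.1 min), and the ratio was 7.32. For the WT steps taken apart, the half-life was 19.0 min (16.3 to 22.6 min) in the first and 24.2 min (20.0 to 30.4 min) in the second. For the KO steps it was 125 min (lower limit 60.6 min) and 528 min (lower limit 96.2 min), both without an upper limit.

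The spread of Tnf between arrays, pooled over the 6 groups, was not unusual, but it differed between groups. Its moderated SD was 0.22 on the log2 scale, and 31.4% of tested genes had a smaller one, beside a median of 0.25. Within groups the SD ran from 0.06 in WT at 0 min to 0.40 in WT at 45 min. Every comparison of group means was set against the pooled value. The labels do not say that replicates came from separate mice or cultures, so every p-value here is set against a spread that may be technical.

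No tested neighbouring gene passed the threshold over time, as was so for most tested genes. Lta and Ltb, which encode the lymphotoxins, lie 1158 and 3062 bases away, and every group mean of both stayed below the signal limit, so neither was tested. Their group means were 1.97 to 2.11 in KO and 1.93 to 2.21 in WT for Lta, and 2.70 to 2.91 in KO and 2.66 to 2.97 in WT for Ltb. Of the 4 tested neighbours Aif1, Lst1, Nfkbil1 and Atp6v1g2, none passed the threshold over 90 min in either genotype. Of all tested genes 0.224% were called lower in KO and 1.22% in WT, so the lack of a call is near those shares. The changes of the 4 neighbours were between -0.23 and 0.36 on the log2 scale. Aif1, a macrophage actin-binding protein, had 62.7 to 69.2 in KO and 35.9 to 49.9 in WT arrays at 0 min. Its arrays did not overlap between genotypes at 0, 45 or 90 min, and the share of all tested genes that do so was not counted. The difference was 0.70 ± 0.17 at 0 min, 0.75 ± 0.17 at 45 min and 0.58 ± 0.17 at 90 min. It did not pass the threshold at any time (limma adjusted p 0.2426, 0.1870 and 0.3307).

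The genes whose log2 signal ran most like that of Tnf over the 18 arrays were Cxcl2 (Pearson r 0.952), Rmc1 (0.943), Plau (0.937), Cxcl1 (0.933) and B4galt3 (0.922). All values share arrays and groups, and the r is a description. These genes were chosen by their likeness to Tnf in the same arrays. Their WT falls and genotype differences below are therefore partly fixed by that choice and are no independent result. The median r of the other 10257 tested genes was 0.0212, and 6 exceeded 0.9. The same 5 genes led, each time in another order, with the means of series A and B removed and without the later KO arrays numbered 2. Over the 6 group means, 1 of these 5, Cxcl1, was among the 5 most alike.

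Cxcl2 and Cxcl1 encode chemokines that attract neutrophils. Cxcl2 had 2140, 2515 and 2001 in KO replicates 1, 2 and 3 at 90 min, against 442, 633 and 271 in WT replicates 1, 2 and 3. It differed by 2.38 ± 0.23 on the log2 scale (limma adjusted p 5.572e-05), and its arrays did not overlap. Cxcl1 had 574, 457 and 1044 in KO replicates 1, 2 and 3, against 98.4, 98.6 and 79.0 in WT replicates 1, 2 and 3, a difference of 2.83 ± 0.35 (adjusted p 0.0011). In both genes every KO array at 90 min lay above every WT array, a separation that their choice by likeness to Tnf favours. The change over 90 min was 0.11 ± 0.23 in KO and -1.98 ± 0.23 in WT cells for Cxcl2, and -0.18 ± 0.35 in KO and -2.82 ± 0.35 in WT cells for Cxcl1.

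The decay difference of Cxcl2, 2.09 ± 0.33, passed with an adjusted p of 0.0375, was kept in 3 of 18 omissions of a single array, and was 2.00 ± 0.36 (adjusted p 0.2158) without the later KO arrays numbered 2. That of Cxcl1, 2.64 ± 0.50, did not pass (adjusted p 0.1899). Plau, the urokinase plasminogen activator, and B4galt3, a galactosyltransferase, changed by -0.21 ± 0.16 and 0.13 ± 0.21 in KO cells, and fell by 1.08 ± 0.16 and 1.24 ± 0.21 in WT cells. Their decay differences, 0.86 ± 0.22 and 1.38 ± 0.30, did not pass. At 90 min Plau was higher in KO by 1.01 ± 0.16 (adjusted p 0.0072) and B4galt3 by 1.495 ± 0.21 (adjusted p 0.0054), but without the later KO arrays numbered 2 these had adjusted p of 0.1114 and 0.0905. Rmc1, a subunit of a Rab7 activator, changed by -0.19 ± 0.12 in KO and fell by 0.59 ± 0.12 in WT cells (limma adjusted p 0.0180), a call kept in 15 of 18 omissions and lost when replicate 2 at 0 min, or replicate 1 or 2 at 90 min, of WT was left out.

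**Figure D4:**
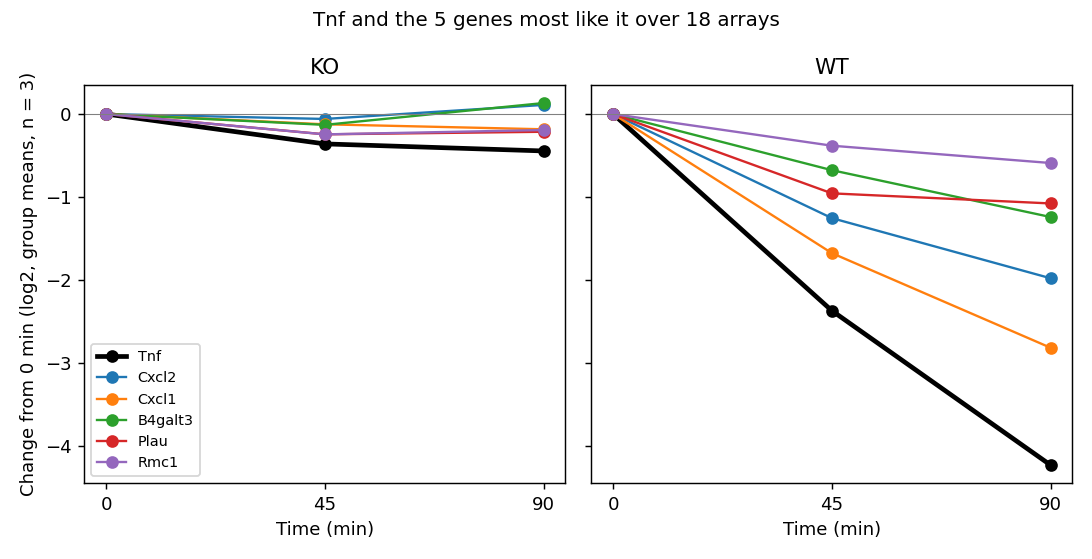
Change from 0 min (log2, group means, n = 3) against time for Tnf and the 5 genes most like it, KO in the left panel and WT in the right. At 90 min the KO lines end between -0.45 and 0.13, whereas the WT lines end at -4.24 for Tnf, -2.82 for Cxcl1, -1.98 for Cxcl2 and between -1.24 and -0.59 for the others.

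The pathway around TNF was described with 7 gene lists, 123 genes in all, of which 91 were tested, 26 lay below the signal limit and 6 had no row of their own symbol. Over all tested genes the median change over 90 min was 0.02 in KO and -0.02 in WT cells, and the share called lower was 0.224% in KO and 1.22% in WT cells. With the replicate block those shares were 0.546% in KO and 2.79% in WT, and without the later KO arrays numbered 2 they were 0.686% in KO and 1.37% in WT. Among other ligands of the TNF superfamily, 6 of 17 were tested; none passed in KO and 1 fell in WT cells, beside 0.224% of all tested genes in KO and 1.22% in WT (list medians -0.04 in KO and 0.04 in WT). That gene was Tnfsf9, the 4-1BB ligand, which stimulates T cells. It had 59.1, 98.7 and 55.4 in KO replicates 1, 2 and 3 at 90 min, against 14.8, 24.0 and 28.7 in WT replicates 1, 2 and 3. At 0 min it had 157, 152 and 241 in KO, against 176, 174 and 209.6 in WT, so that the genotypes overlapped at 0 min and not at 90 min.

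Tnfsf9 changed by -1.38 ± 0.31 in KO cells (limma adjusted p 0.0976) and fell by 3.10 ± 0.31 in WT cells (adjusted p 3.350e-05). At 90 min it was higher in KO by 1.66 ± 0.31 (adjusted p 0.0429), a call kept in 5 of 18 omissions of a single array. Without the later KO arrays numbered 2 its KO fall of 1.65 ± 0.26 passed (adjusted p 0.0070), and the difference at 90 min, 1.40 ± 0.26, did not (adjusted p 0.1004). The decay difference of 1.72 ± 0.44 had an adjusted p of 0.9958.

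Of the TNF receptors and the proteins that shed TNF from the cell surface, 6 of 7 were tested and none passed in either genotype (medians 0.06 in KO and -0.09 in WT). Rhbdf2, an inactive rhomboid protein that carries the sheddase ADAM17 to the surface, changed by 0.08 ± 0.31 in KO and -0.55 ± 0.31 in WT cells. Tnfrsf1b, which encodes TNF receptor 2, changed by 0.05 ± 0.36 in KO and -0.30 ± 0.36 in WT cells. Of 26 other members of the receptor superfamily, 14 were tested and none passed (medians 0.05 in KO and -0.04 in WT). For both lists this is near the share called lower over all tested genes, 0.224% in KO and 1.22% in WT. Tnfrsf14, the receptor HVEM, changed by 0.45 ± 0.21 in KO and 0.40 ± 0.21 in WT cells, and the neurotrophin receptor Ngfr by -0.12 ± 0.14 in KO and 0.24 ± 0.14 in WT cells.

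Of 21 genes for the complexes that assemble on TNF receptors, 19 were tested and none passed in either genotype (medians -0.00 in KO and -0.10 in WT). Over all tested genes 0.224% were called lower in KO and 1.22% in WT. The adaptor Traf2 changed by -0.70 ± 0.24 in KO and -0.92 ± 0.24 in WT cells (limma adjusted p 0.5406 and 0.0760). Birc3, which encodes the ubiquitin ligase cIAP2, changed by -0.57 ± 0.20 in KO and -0.81 ± 0.20 in WT cells (adjusted p 0.5880 and 0.0623). With the replicate block 3 of the 19 fell in WT cells, beside 2.79% of all tested genes. Without the later KO arrays numbered 2, 1 of the 19 fell in each genotype, beside 0.686% of all tested genes in KO and 1.37% in WT.

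The inhibitors of TNF signalling were all tested, and of these 12, 1 fell in KO and 2 in WT cells, beside 0.224% of all tested genes in KO and 1.22% in WT (medians -0.16 in KO and -0.40 in WT). Tnfaip3, which encodes the ubiquitin-editing enzyme A20, had 103, 299 and 97.6 in KO replicates 1, 2 and 3 at 90 min, against 85.0, 80.1 and 93.6 in WT replicates 1, 2 and 3. At 45 min it had 283, 94.2 and 242 in KO, against 234, 227 and 187 in WT. The KO arrays numbered 2 thus stood apart at both later times, low at 45 min and high at 90 min. Tnfaip3 fell by 2.49 ± 0.39 in KO (limma adjusted p 0.0110) and by 3.21 ± 0.39 in WT cells (adjusted p 2.100e-04). Its KO call was kept in 14 of 18 omissions of a single array (highest adjusted p 0.1267).

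Nfkbia, which encodes IkB-alpha, showed the same pair apart, with 148, 503 and 185 in KO replicates 1, 2 and 3 at 90 min, against 95.5, 106 and 180.3 in WT replicates 1, 2 and 3. It changed by -2.22 ± 0.49 in KO (limma adjusted p 0.0954) and fell by 3.38 ± 0.49 in WT cells (adjusted p 8.835e-04). Without both arrays Tnfaip3 fell by 3.02 ± 0.21 in KO (adjusted p 4.061e-06) and Nfkbia fell by 2.75 ± 0.32 (adjusted p 4.135e-04), so 2 of 12 fell in each genotype, beside 0.686% of all tested genes in KO and 1.37% in WT. Their decay differences were then 0.19 ± 0.28 and 0.63 ± 0.43, beside 3.65 ± 0.26 for Tnf.

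Among 18 regulators of Tnf mRNA stability and translation, 16 were tested, and 1 fell in KO and 2 in WT cells, beside 0.224% of all tested genes in KO and 1.22% in WT (medians 0.03 in KO and -0.03 in WT). Zfp36 had 24.0, 62.6 and 21.4 in KO replicates 1, 2 and 3 at 90 min, against 17.2, 17.1 and 17.8 in WT replicates 1, 2 and 3. It fell by 1.61 ± 0.32 in KO (limma adjusted p 0.0475) and by 3.52 ± 0.32 in WT cells (adjusted p 1.145e-05). The KO call was kept in 3 of 18 omissions, and without the later KO arrays numbered 2 the fall was 2.10 ± 0.24 (adjusted p 4.135e-04). Dusp1, a phosphatase that inactivates p38, changed by -2.997 ± 0.67 in KO (adjusted p 0.0976) and fell by 3.39 ± 0.67 in WT cells (adjusted p 0.0130). That WT call was kept in 16 of 18 omissions and lost without WT 90 min replicate 1 or 2. Without the same arrays it also fell by 3.33 ± 0.63 in KO (adjusted p 0.0187), so that 2 of 16 fell in each genotype, beside 0.686% of all tested genes in KO and 1.37% in WT.

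Of 22 genes for the LPS receptor and its signalling to Tnf transcription, 18 were tested and none passed (medians -0.05 in KO and -0.32 in WT). Over all tested genes 0.224% were called lower in KO and 1.22% in WT. The adaptor Ticam1 changed by -0.64 ± 0.23 in KO and -0.95 ± 0.23 in WT cells (limma adjusted p 0.6139 and 0.0543), and the NF-kB subunit Rel by -1.02 ± 0.30 in KO and -0.87 ± 0.30 in WT cells. With the replicate block 1 of the 18 fell in WT cells, beside 2.79% of all tested genes. Without the later KO arrays numbered 2, 1 of the 18 also fell in WT cells, beside the WT share given above for that fit. The decay difference over 90 min was called in no tested member of any of the 7 lists, where the list medians lay between 0.03 and 0.31 beside 0.04 over all tested genes.

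**Figure D5:**
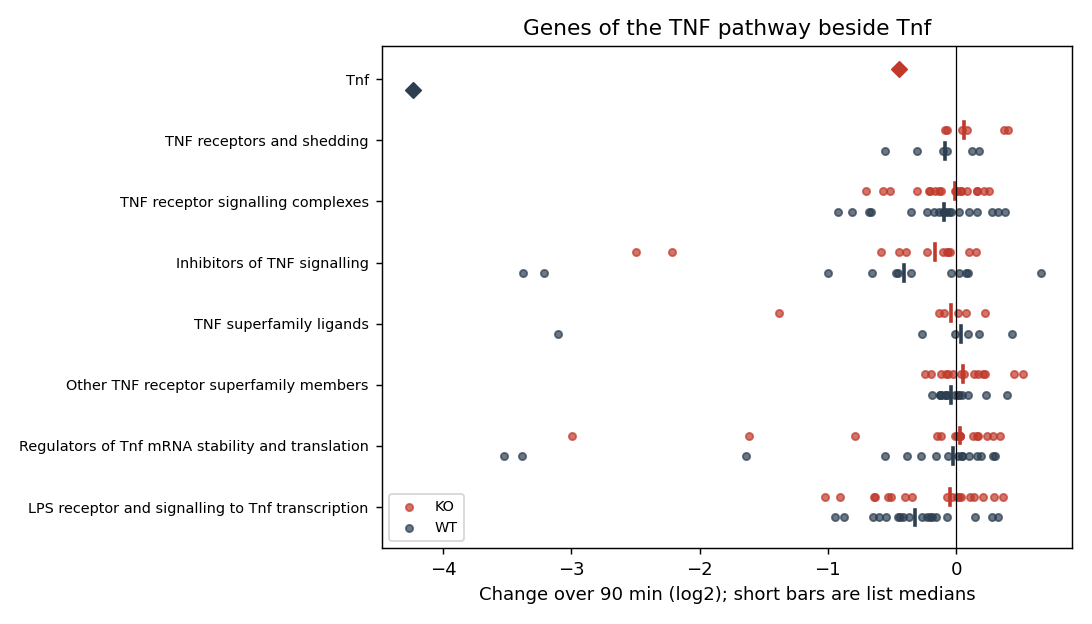
Change over 90 min (log2) of the tested genes of each of the 7 lists, KO above WT in each row, with list medians as short bars and Tnf as diamonds at the top. Most members lie within 1 of 0 in both genotypes, and the genes below -2 in KO are Tnfaip3 and Nfkbia (inhibitors) and Dusp1 (regulators).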

How the data were processed

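Total RNA of 18 samples was read on arrays. The authors normalised them by RMA with the software Affymetrix Expression Console, per the submitters' processing notes, which name no version. The deposited intensity values were taken as linear from their range (array medians 7.41 to 8.19). The log2 was taken with no offset. Rows with 1 symbol (21039) were kept, the brightest row per symbol gave 19454 genes, and 10258 whose highest group mean reached a log2 intensity of 3.03 were tested. Symbols were updated through RefSeq (GRCm38.p6). Group means over all arrays were fitted in limma 3.58.1 (R 4.3.3), without a block, with Benjamini-Hochberg adjustment at 0.05; the number of arrays limits the precision. The procedure was tested on simulated data.

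Named genes were list members past the threshold (up to 4 a list, otherwise the 2 largest WT changes), neighbours, next ranks, the 5 most alike and Zfp36. Dusp2 and Il10 were added after their values were seen. The gene and the lists were chosen with earlier results of these data known. Same-numbered arrays deviated together (correlations above 0.1 in every pair) for all comparisons but WT at 90 min against 0 min (lowest -0.287) and against 45 min (lowest -0.02). Those numbers were taken to pair the samples in the fits with a replicate block. The main fit left that pairing out, although counts of called genes moved with the block. Alternatives numbered 31.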

Additional observations from a re-analysis of the deposited data

Results flagged for a closer look

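The change of Tnf over time differed between genotypes by the test of the difference itself. KO minus WT was 3.79 over 90 min, 2.01 over the first 45 min and 1.78 between 45 and 90 min on the log2 scale. The slopes differed by 2.53 log2 units per hour. For Cxcl2 the difference over 90 min was 2.09. The difference of Tnf between 45 and 90 min and that of Cxcl2 rest on the arrays labelled KO 45 min replicate 2 and KO 90 min replicate 2 among others, and neither passed without both.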

How the results depend on the processing

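Over the 31 alternatives Tnf kept its direction and its side of the threshold for its fall in WT over 90 min (-4.32 to -4.17), for KO against WT at 45 min (1.91 to 2.33) and at 90 min (3.85 to 4.09), for the decay difference over 90 min (3.65 to 3.89), and for both WT steps, the slopes and KO against WT at 0 min. The decay difference over 45 min lost its call with arrays centred on ribosomal protein genes (1.89, limma adjusted p 0.0743). The decay difference between 45 and 90 min was not called in 11 of the 18 single-array omissions, with values of 1.64 to 1.84 in those 11 and of 1.64 to 2.01 over all 18. The arrays whose omission ended the call were KO 0 min replicate 2, KO 45 min replicates 1, 2 and 3, KO 90 min replicates 1 and 2, WT 45 min replicates 1 and 2, and WT 90 min replicates 1, 2 and 3. It also lost it with centring on housekeeping genes (1.67, adjusted p 0.2382) or ribosomal protein genes (1.77, adjusted p 0.1673), quantile normalization (1.68, adjusted p 0.1763), only the compared groups (1.78, adjusted p 0.3052), and without the later KO arrays numbered 2 (1.55, adjusted p 0.5165). The uncalled late KO step was 0.0709 in series B alone and -0.22 to 0.01 over the single omissions (0.0057 without KO 90 min replicate 3). The difference between the KO steps was -0.0519 without the later KO arrays numbered 2. The cause was not tested. The replicate block changed no call of Tnf; the decay difference over 90 min was 3.79 with it (adjusted p 3.014e-07). Centring on array medians put the median of all genes at 0.15 for the decay difference over 90 min, and centring on ribosomal protein genes put the median of all genes in KO against WT at 0 min at 0.25, where Tnf was 0.44.

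Counts of called genes moved more. Genes lower in WT over 90 min numbered 125, and 286 with the replicate block, 291 with the title series as a block, 608 in series B alone and 68 (without WT 90 min replicate 1) to 147 over the single omissions. Genes lower in KO over 90 min numbered 23, and 56, 60, 22 and 2 (without KO 90 min replicate 3) to 63 (without KO 90 min replicate 2) in the same order. Genes higher in KO at 90 min numbered 15, and 73, 83, 86 and 3 (without KO 90 min replicate 2) to 19. At 0 min they numbered 0, and 19, 23, 830 and 0 to 737 (without WT 0 min replicate 3).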
